A study of Mus musculus with 6 samples.

Results

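The endoplasmic reticulum (ER) genes described here were the 37 genes of a named list of ER stress sensors, ER chaperones and factors of ER-associated degradation (ERAD), taken from a table of 56350 mouse gene IDs by their symbols. All 37 passed the filter on low counts, among 16051 genes tested. They fell by role into 6 sensors and transcription factors, 19 chaperones and folding enzymes, 10 ERAD factors and 2 genes of the translocon, the channel through which new proteins enter the ER. RNA of mouse liver was sequenced in 6 libraries, 3 labelled wild-type (WT) and 3 labelled as a hepatocyte-specific knockout of Atg14 (HepKO from here on). The product of Atg14 directs the kinase complex with which autophagosome formation begins. The sources used here give no Cre line, strain, age, sex or diet. They also do not say whether each sample is its own animal, so the p-values speak of the variation among these samples, which may be in part technical. HepKO replicate 1 differs from the other HepKO libraries in sex-linked genes (below), so it is not a technical repeat of them.

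Secreted and membrane proteins fold in the ER, where chaperones of the heat shock families hold them unfolded, lectin chaperones read their sugars and protein disulfide isomerases form their disulfide bonds. Proteins that fail to fold are pulled back into the cytosol through the Hrd1 complex and degraded by the proteasome, which is ERAD. Membrane sensors, the products of Ern1, Eif2ak3 and Atf6, respond to unfolded proteins. The first splices Xbp1 mRNA, the second slows translation and the third is cut to release a transcription factor, and together they raise chaperone and ERAD genes. Hepatocytes secrete most plasma proteins and carry a dense ER.

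Total counts ranged from 33145684 to 48951937 reads per library. Among the 37 genes the thinnest was Derl3, with 7 to 58 reads per library, and every other gene had at least 245 reads in each library. Atg14 itself was at 20.9, 22.2 and 21.05 CPM (reads of the gene per 1000000 reads of the scaled library total) in the WT libraries, in the order of their replicate numbers as in all such sets of values here, and 5.66, 8.45 and 7.95 CPM in the HepKO libraries, lower in all HepKO libraries (log2FC -1.54 ± 0.16, FDR 4.69e-04). HepKO replicate 1 stood apart in sex-linked genes: Xist was at 523 CPM there and at 0.0676 to 0.490 CPM in the other libraries, while the Y-linked gene Ddx3y was at 0.0517 CPM there and at 65.95 to 102 CPM elsewhere. By these genes HepKO replicate 1 reads as female and the other libraries as male. Counts of calls without that library, and the gene values it turns, are therefore given beside the results. The shares of all tested genes called with a library left out are not given here. Fewer calls in such a fit therefore cannot be read as particular to the genes counted. CPM were scaled with trimmed mean of M-values (TMM) factors, 0.824 to 0.860 in WT and 1.19 to 1.21 in HepKO. This scaling decides many directions: over all tested genes the median log2 fold change (log2FC, HepKO over WT) moved from 0.01 with TMM to 0.52 with plain library totals. Hepatocyte markers defined the tissue in all libraries, at summed levels of 99837 to 126439 CPM in WT and 44331 to 57078 CPM in HepKO, with 8 of 9 tested genes called lower under TMM and 4 under library totals. Markers of other cells were called higher in HepKO under TMM: 7 of 8 macrophage genes (135 to 271 CPM in WT, 367 to 621 in HepKO), 4 of 8 stellate and fibroblast genes (105 to 174 and 359 to 514) and 4 of 7 cholangiocyte genes (56.9 to 75.4 and 161 to 586). Plasma and B cell genes, whose cells are rich in ER chaperones, summed to 184 to 200 CPM in WT and 180 to 235 CPM in HepKO, with 1 of 10 lower and 1 higher under TMM. Of 6 endothelial genes 1 was higher (128 to 160 and 147 to 187 CPM), and the 6 pancreatic acinar markers summed to 8.64 to 18.3 CPM in WT and 10.9 to 14.3 CPM in HepKO. Nearly all of that sum was Cela1, which was not called, while Amy2a5, Cpa1, Ctrb1 and Pnlip were at 0 counts in every library. Without HepKO replicate 1 the TMM counts were 6 hepatocyte genes lower and 5 macrophage, 4 stellate and fibroblast, 4 cholangiocyte and 1 endothelial genes higher. In tissue RNA, fewer cells of a type and less RNA per cell cannot be told apart, and the part of these shifts in the results below was not tested.

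Many ER chaperone and ERAD genes share a short promoter element, and the stretches that hold it are shown first so that the values of their genes can be read against them. The ER stress element is CCAAT and CCACG separated by 9 bases, and the second ER stress element is ATTGG and CCACG separated by 1 base. Both are known binding sites of the factor released from ATF6 together with the CCAAT-binding factor NF-Y. RefSeq promoter windows on GRCm38.p6, 250 bases before to 50 bases after a start, were matched for 32 of the 37 genes and not for Atf6, Hspa13, Hyou1, Manf and Derl1. Searched on both strands, the first element stood in the windows of 9 of the 32 genes (28.1%) and in those of 0.137% of 27025 genes in the table. The second stood in 2 of 32 (6.25%), against 0.0444% of all genes. No gene carried both, and no window of the 32 held the UPR element (TGACG directly followed by TGG), which 0.714% of all genes had. A match is a description of the letters and not a measured binding site.

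The stretches below run 5′ to 3′ on the strand of the gene, with the element in capitals, for the gene with the largest fall and 5 others that carry an element.
Herpud1, second element, chr8:94386362-94386402 (plus strand): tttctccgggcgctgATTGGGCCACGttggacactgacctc
Hspa5, first element, chr2:34772010-34772058 (plus strand): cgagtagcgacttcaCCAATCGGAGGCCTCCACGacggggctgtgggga
Syvn1, first element, chr19:6046517-6046565 (plus strand): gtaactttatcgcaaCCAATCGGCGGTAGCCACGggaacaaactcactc
Canx, first element, chr11:50325785-50325833 (minus strand): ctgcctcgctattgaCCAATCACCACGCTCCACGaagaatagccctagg
Calr, first element reading on the opposite strand, chr8:84847060-84847108 (minus strand): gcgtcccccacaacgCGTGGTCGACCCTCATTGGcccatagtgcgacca
Hsp90b1, first element in both orientations, chr10:86705518-86705671 (minus strand): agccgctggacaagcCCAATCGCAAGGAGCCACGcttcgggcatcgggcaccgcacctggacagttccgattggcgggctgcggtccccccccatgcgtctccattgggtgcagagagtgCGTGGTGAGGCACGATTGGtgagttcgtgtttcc

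Across the 37 genes, 12 were lower and 5 higher in HepKO under TMM, by edgeR's quasi-likelihood test with a threshold of 0.05 on the Benjamini-Hochberg adjusted p (FDR). That is 32.4% lower and 13.5% higher, where 18.7% of all tested genes were called lower and 19.5% higher. Their median log2FC was -0.19. HepKO libraries all lay below the WT libraries for 14 of the 37 genes and all above for 6, against 26.4% and 27.1% of all tested genes. Under library totals the count turned, with 1 lower and 20 higher (54.1% higher), against 5.84% lower and 46.4% higher of all tested genes, and a median of 0.32.

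Few genes were called in the same direction under both scalings. Herpud1 was lower under both, and Ern1, Eif2ak3, Dnajc10, Ero1l and Edem2 were higher under both. Library totals move log2FC upward (median of all tested genes 0.01 under TMM and 0.52 under library totals). A gene higher under TMM is thus bound to lie higher there too, and only lower calls were put at risk. The other 11 genes called lower under TMM were not called under library totals, and 15 genes not called under TMM were called higher under library totals. The remaining 5 were called under neither. Without HepKO replicate 1 the counts were 11 lower and 4 higher under TMM, and 1 lower and 19 higher under library totals. There the higher calls of Hspa5 (FDR 0.0605), Hyou1 (0.0602) and Sec61b (0.0783) ended and Dnajc3 (0.0411) and Edem3 (0.0279) became higher calls. Leaving out another library moved them by more than 1.5 times: 7 were lower without WT replicate 2, and 3, 2, 3 and 3 were higher without WT replicate 2, WT replicate 3, HepKO replicate 2 and HepKO replicate 3. A fit with fewer libraries has less power for every gene, and the shares of all tested genes called there are not given beside these counts.

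**Figure D1:**
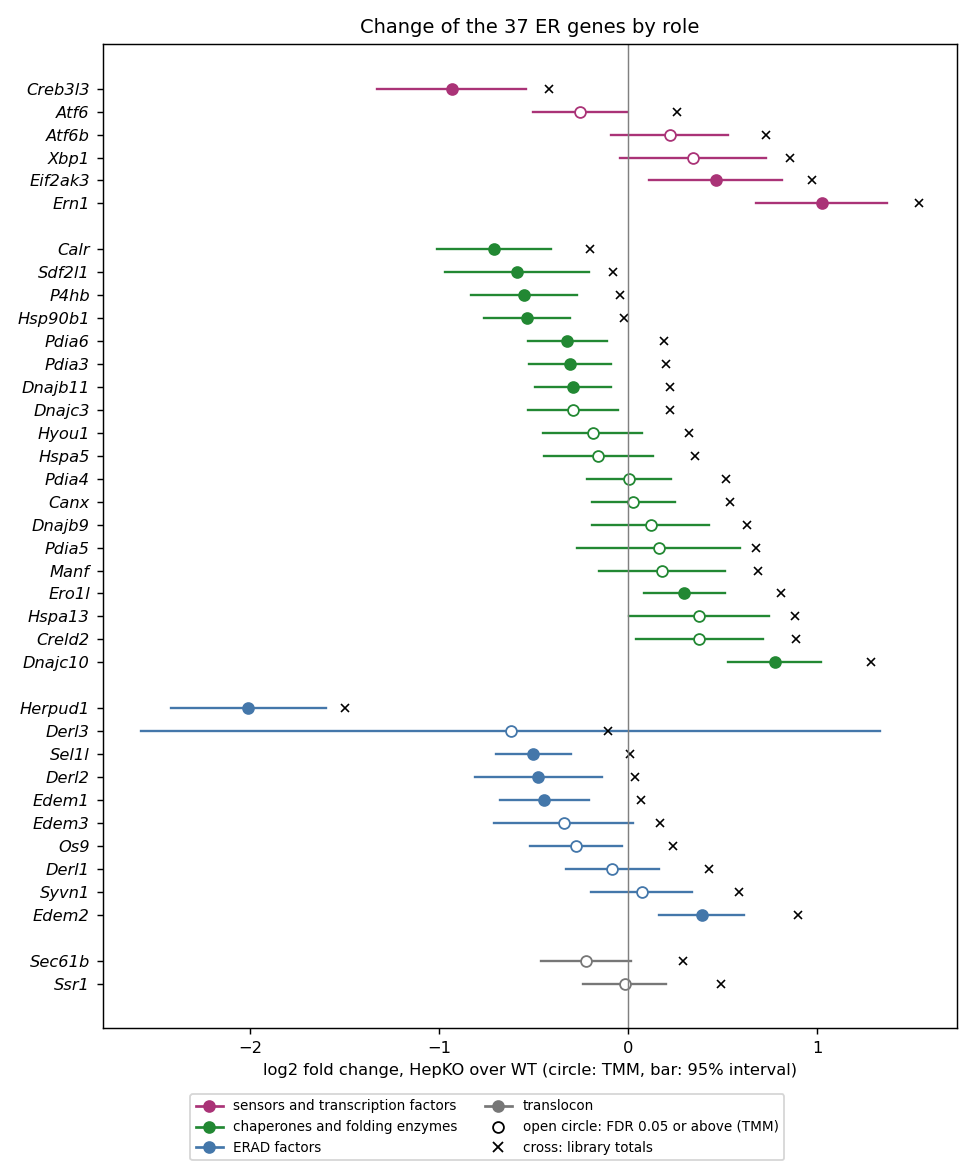
Change of each of the 37 genes, grouped by role, as log2 fold change of HepKO over WT (x axis). Circles are TMM values with 95% intervals, filled where the FDR is under 0.05, and crosses are values under library totals, which lie about 0.5 to the right. Herpud1 lies far to the left at -2.01 and Ern1 to the right at 1.02.

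The sensors and their transcription factors did not move together. Ern1, which encodes the sensor kinase and nuclease that splices Xbp1 mRNA, was at 38.8, 35.1 and 38.7 CPM in WT and 59.6, 80.5 and 88.9 CPM in HepKO. Every HepKO library lay above every WT library, and HepKO replicate 1 was the lowest of the 3. The rise was 2.03-fold (log2FC 1.02 ± 0.15, FDR 0.00161). It remained called under all 15 alternatives, with log2FC between 0.89 and 1.54. Its coordinates in GRCm38 (mm10) are chr11:106394650-106487852, minus strand.

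Eif2ak3, the sensor kinase PERK that slows translation, had 22.7, 20.2 and 14.99 CPM in the WT replicates and 26.03, 27.5 and 26.2 CPM in the HepKO replicates. The HepKO values were close together and the WT values spread, with WT replicate 3 the lowest, and the groups did not overlap. The rise passed the test (log2FC 0.46 ± 0.15, FDR 0.0438) but ended when any library other than WT replicate 1 was left out (log2FC 0.33 to 0.53, FDR 0.0624 to 0.116), with an FDR of 0.0776 without HepKO replicate 1. A predicted gene on the opposite strand overlaps 8.05% of its exonic length, and the sources used here do not name the strand setting of the counting. Atf6, the sensor that is cut to a transcription factor, was at 125, 117 and 105 CPM in WT and 90.3, 106 and 94.6 CPM in HepKO. HepKO replicate 2 reached into the WT range and no change was called (log2FC -0.26 ± 0.11, FDR 0.0976; 95% interval -0.50 to -0.01). Its relative Atf6b was the scarcer of the pair, at 8.28, 9.53 and 9.78 CPM in WT and 10.5, 11.5 and 10.1 CPM in HepKO, with all HepKO libraries above WT but no call (log2FC 0.22 ± 0.13, FDR 0.240). Under library totals Atf6b was called higher (log2FC 0.73, FDR 0.00345) and Atf6 was not (log2FC 0.26, FDR 0.0882).

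Xbp1, whose mRNA is the substrate of Ern1's product, was at 162, 148 and 136 CPM in WT and 147, 186 and 233 CPM in HepKO. HepKO replicate 1 lay inside the WT range, and the other HepKO libraries lay above it. There was no call over all 6 libraries (log2FC 0.34 ± 0.17, FDR 0.142), while without HepKO replicate 1 the gene was higher (log2FC 0.49, FDR 0.0241), as it was under library totals (log2FC 0.85, FDR 0.00413). Gene counts add the spliced and unspliced forms, so splicing of Xbp1 was not measured. Creb3l3, a liver-enriched ER membrane transcription factor that is cut in the same way as ATF6 and controls lipid and acute phase genes, went the other way. It had 236, 253 and 300.2 CPM in WT and 105, 154 and 154 CPM in HepKO, without overlap and with HepKO replicate 1 lowest. It fell under TMM (log2FC -0.93 ± 0.17, FDR 0.00412) and without HepKO replicate 1 (log2FC -0.78, FDR 0.00356), with no call under library totals (log2FC -0.42, FDR 0.0690).

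Among chaperones of the heat shock families the most abundant were level or lower. Hspa5 encodes BiP, the main ER chaperone, which also holds the sensors inactive. It was at 738, 600.3 and 571 CPM in WT and 579, 563 and 567 CPM in HepKO. WT replicate 1 stood above the other WT libraries, and the HepKO values lay close together, near the lowest WT library. No change was called (log2FC -0.16 ± 0.13, FDR 0.352; 95% interval -0.45 to 0.13), while under library totals the gene was called higher (log2FC 0.35, FDR 0.0421), a call that ended without HepKO replicate 1 (FDR 0.0605). Hsp90b1, the ER member of the HSP90 family, was at 952, 976 and 976 CPM in WT and 672, 665 and 667 CPM in HepKO. Both groups were tight and far apart, and the gene fell under TMM (log2FC -0.54 ± 0.10, FDR 0.00423), with a log2FC of -0.55 without HepKO replicate 1, but lay at -0.03 under library totals (adjusted p = 0.843). Other transcripts overlap 15.7% of its exonic length.

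Cochaperones of BiP divided in direction. Dnajc10, a J protein with disulfide reductase activity that helps unfold ERAD substrates, was at 41.2, 42.5 and 35.01 CPM in WT and 63.003, 70.8 and 69.5 CPM in HepKO. All HepKO libraries lay above WT, a rise of 1.71-fold (log2FC 0.78 ± 0.11, FDR 0.00127) that remained called under all 15 alternatives, log2FC 0.71 to 1.29. Dnajb11, a J protein that binds nascent chains and carries the second ER stress element, had 77.4, 74.6 and 81.4 CPM in WT and 62.3, 61.6 and 66.8 CPM in HepKO. It fell under TMM (log2FC -0.29 ± 0.09, FDR 0.0307), a call that ended when any 1 library was left out (log2FC -0.34 to -0.24, FDR 0.0503 to 0.124) and under library totals (log2FC 0.22, FDR 0.0547). Sdf2l1, which keeps BiP substrates soluble, was at 9.05, 10.002 and 9.57 CPM in WT and 5.25, 6.999 and 6.78 CPM in HepKO. It fell under TMM (log2FC -0.59 ± 0.16, FDR 0.0244), with no call without HepKO replicate 1, WT replicate 2 or WT replicate 3 (log2FC -0.57 to -0.48, FDR 0.0566 to 0.0878), or under library totals (log2FC -0.08, FDR 0.715).

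The other chaperone partners gave no call under TMM: the J proteins Dnajb9 and Dnajc3, the nucleotide exchange factor Hyou1, the HSP70 relative Hspa13, and the small stress-induced proteins Manf and Creld2. Their log2FC ran from -0.29 for Dnajc3 to 0.38 for Creld2, and all of them but Dnajc3 were called higher under library totals, Hyou1 not without HepKO replicate 1 (FDR 0.0602). In the WT group replicate 1 was the highest library for each of Hspa5, Hyou1, Hspa13, Dnajb9, Manf and Creld2, and Manf was at 59.03, 47.1 and 40.02 CPM in WT against 52.1, 54.9 and 58.3 CPM in HepKO. This was not general to the list. Over the 37 genes WT replicate 1 was the highest WT library for 16 and the lowest for 15. It was the lowest for Hsp90b1, Calr, P4hb and Dnajc3. Some of the partners named above became calls when 1 library was left out: Hspa13 was higher without WT replicate 1 (log2FC 0.55, FDR 0.0217), and without HepKO replicate 2 Creld2 was higher (log2FC 0.48, FDR 0.0456) and Dnajc3 lower (log2FC -0.37, FDR 0.0494).

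**Figure D2:**
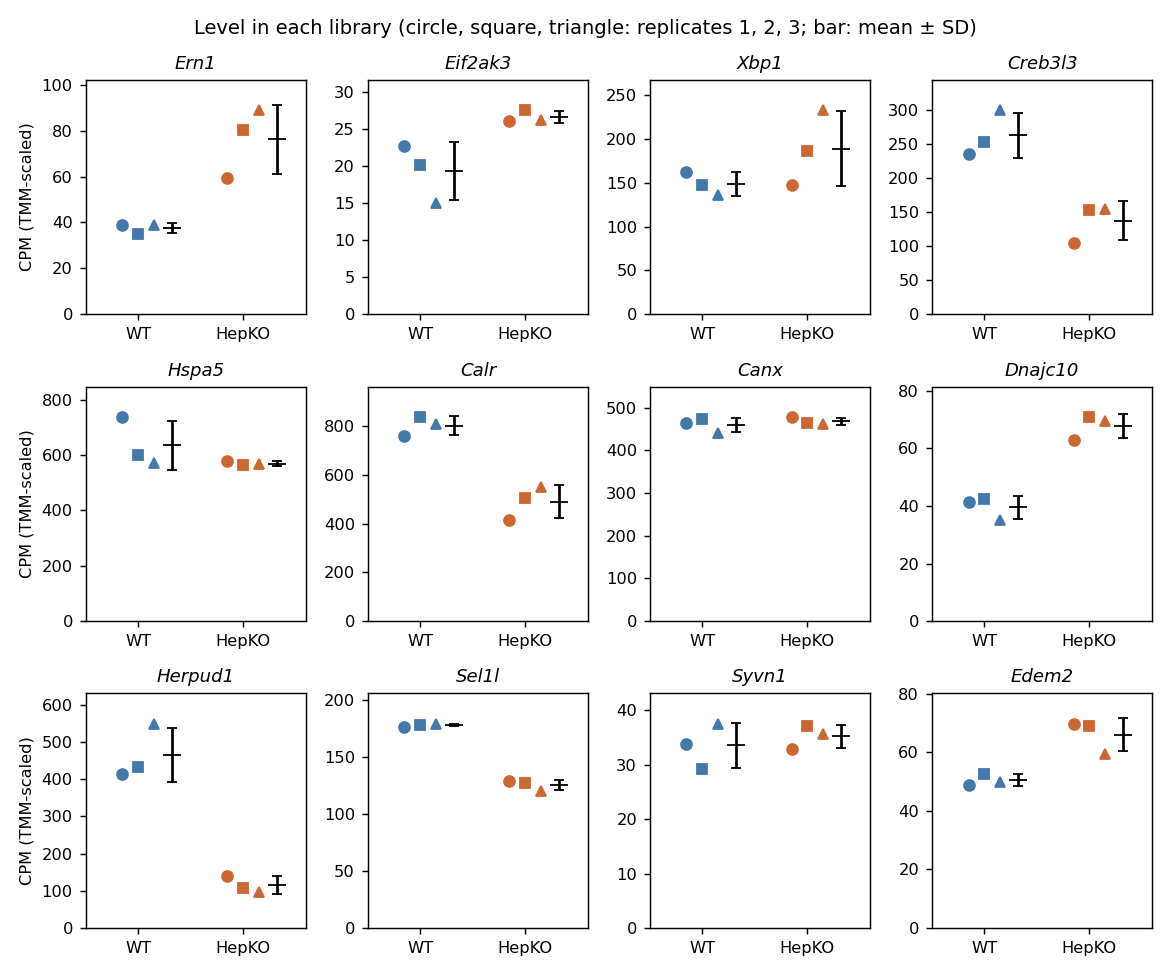
TMM-scaled CPM (y axis, from 0) of 12 of the genes in each library, WT on the left and HepKO on the right of each panel, with mean ± SD over 3 libraries beside the points. The groups are far apart for Herpud1, Ern1, Dnajc10, Calr and Sel1l, and overlap for Xbp1, Hspa5, Canx and Syvn1.

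The lectin chaperones, which bind the trimmed sugar of new glycoproteins, separated from each other. Calr, the soluble lectin calreticulin, was at 762, 838 and 809.5 CPM in WT and 416, 506 and 549.8 CPM in HepKO, with HepKO replicate 1 the lowest library. It fell 1.64-fold under TMM (log2FC -0.71 ± 0.13, FDR 0.00425) and remained called without HepKO replicate 1 (log2FC -0.61, FDR 0.00471), though not under library totals (log2FC -0.20, FDR 0.234). Canx, the membrane-bound lectin calnexin, was at 465, 473 and 441 CPM in WT and 478, 465 and 461 CPM in HepKO. Its groups overlapped and its log2FC was 0.03 ± 0.10 (95% interval -0.19 to 0.25; adjusted p = 0.853), or 0.54 under library totals (adjusted p = 0.00284). The ratio of Calr to Canx, taken per base of exon within each library so that no scaling factor enters, was 2.67, 2.89 and 2.99 in WT and 1.42, 1.77 and 1.94 in HepKO.

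Disulfide isomerases were lower or level under TMM. P4hb, which encodes the founding disulfide isomerase and was the most abundant of the 37 genes per kilobase of exon in both groups, was at 1607, 1791 and 1877 CPM in WT and 1292, 1150 and 1151 CPM in HepKO. The groups did not overlap and the gene fell (log2FC -0.55 ± 0.12, FDR 0.00916), with a log2FC of -0.62 without HepKO replicate 1 and of -0.04 under library totals (adjusted p = 0.778). Pdia3, the isomerase that works with the lectins, had 499.6, 477 and 494 CPM in WT and 388, 405 and 394 CPM in HepKO. Pdia6, an isomerase that also tempers sensor signalling, had 202, 217 and 215 CPM in WT and 160.4, 172 and 174 CPM in HepKO. Neither gene's groups overlapped, and both fell by a small step under TMM (log2FC -0.31 ± 0.09, FDR 0.0329 for Pdia3; log2FC -0.32 ± 0.09, FDR 0.0257 for Pdia6). Both calls ended without WT replicate 2, WT replicate 3, HepKO replicate 2 or HepKO replicate 3, and that of Pdia3 also without WT replicate 1 (log2FC -0.33 to -0.28, FDR 0.0722 to 0.111 for Pdia3; log2FC -0.35 to -0.28, FDR 0.0588 to 0.128 for Pdia6). Under library totals the log2FC were 0.20 and 0.19, with no call. Pdia4 and Pdia5 gave no call, at log2FC 0.01 and 0.16. Ero1l, the oxidase that recharges the isomerases, was the exception, at 19.9, 22.04 and 21.2 CPM in WT and 24.9, 26.2 and 26.4 CPM in HepKO. Its rise was 1.23-fold (log2FC 0.30 ± 0.09, FDR 0.0379); under TMM it ended when any 1 library was left out (log2FC 0.25 to 0.36, FDR 0.0587 to 0.115), and under library totals it was called (log2FC 0.81, FDR 5.20e-04).

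The most abundant genes of the list were mostly among those called lower, and so were the most abundant genes of the whole table. Of the 10 genes of the list with the highest mean CPM over the 6 libraries (P4hb, Hsp90b1, Calr, Hspa5, Canx, Pdia3, Herpud1, Dnajc3, Edem1 and Creb3l3), 7 were lower under TMM, and Hspa5, Canx and Dnajc3 were not called. Of the 684 tested genes at least as abundant, at 201 CPM or more, 56.1% were lower and 10.1% higher. Under library totals 1 of the 10 was lower and 2 were higher, against 5.84% lower and 46.4% higher of all tested genes. The shares of the 684 genes under that scaling are not given here.

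ERAD factors held the largest change of the list. Herpud1, a membrane protein that recruits substrates and ubiquilins to the Hrd1 complex and is a known target of the unfolded protein response, was at 414, 432 and 548 CPM in WT and 141, 108 and 96.5 CPM in HepKO. The highest HepKO library held less than the lowest WT library by a wide margin. The fall was 4.03-fold (log2FC -2.01 ± 0.18, FDR 2.33e-04), with 465 ± 72.97 CPM in WT and 115 ± 22.97 CPM in HepKO (SD, n = 3 each). It remained called under all 15 alternatives, with log2FC between -2.19 and -1.50, and was -2.19 without HepKO replicate 1. Per kilobase of exon it ranked 4 among the 37 genes in WT and 10 in HepKO. Its coordinates in GRCm38 are chr8:94386438-94395377, plus strand.

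The core of the Hrd1 complex moved less. Sel1l, the adaptor that links substrates to the ligase, was at 177, 178 and 179 CPM in WT and 129, 127 and 120.4 CPM in HepKO, tight and apart in both groups. It fell 1.42-fold under TMM (log2FC -0.50 ± 0.09, FDR 0.00301), with a log2FC of -0.53 without HepKO replicate 1, and lay at 0.01 under library totals (adjusted p = 0.950). Syvn1, the ubiquitin ligase Hrd1 itself, was at 33.9, 29.3 and 37.5 CPM in WT and 32.96, 37.1 and 35.6 CPM in HepKO. Its groups overlapped and no change was called (log2FC 0.07 ± 0.12, FDR 0.669; 95% interval -0.20 to 0.34), with a higher call under library totals (log2FC 0.58, FDR 0.00326). Within libraries the ratio of Herpud1 to Syvn1 per base of exon was 25.5, 30.8 and 30.5 in WT and 8.90, 6.09 and 5.64 in HepKO, and that of Sel1l to Syvn1 was 2.96, 3.46 and 2.71 in WT and 2.22, 1.95 and 1.92 in HepKO. HepKO ratios were below WT ratios in every library for both pairs.

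The EDEM proteins, which trim mannose from glycoproteins to mark them for disposal, split by member. Edem1 was at 228, 234 and 242 CPM in WT and 191, 164 and 162 CPM in HepKO, without overlap. It fell under TMM (log2FC -0.44 ± 0.10, FDR 0.0111), also without HepKO replicate 1 (log2FC -0.53, FDR 0.00429), and was not called under library totals (log2FC 0.07, FDR 0.598). Edem2, which makes the first cut, was at 48.7, 52.6 and 49.8 CPM in WT and 69.6, 68.9 and 59.3 CPM in HepKO. It rose under both scalings (log2FC 0.39 ± 0.10, FDR 0.0159; library totals, log2FC 0.90, FDR 4.03e-04), a TMM call that ended without WT replicate 1, WT replicate 3 or HepKO replicate 2 (log2FC 0.35 to 0.40, FDR 0.0514 to 0.0602). Edem3 gave no call, at 57.9, 51.8 and 55.7 CPM in WT and 33.2, 45.1 and 52.3 CPM in HepKO, where replicate 1 was the lowest library, and was called lower without HepKO replicate 3 (log2FC -0.50, FDR 0.0487). The ratio of Edem1 to Edem2 was 2.52, 2.38 and 2.61 in WT and 1.47, 1.28 and 1.47 in HepKO.

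Among the derlins, membrane proteins of the exit channel, Derl2 was at 132, 108 and 91.7 CPM in WT and 88.3, 74.1 and 76.6 CPM in HepKO. WT replicate 3 lay near the HepKO values without reaching them. Derl2 fell under TMM (log2FC -0.48 ± 0.15, FDR 0.0349), a call that ended without WT replicate 1, WT replicate 2, HepKO replicate 2 or HepKO replicate 3 (log2FC -0.46 to -0.33, FDR 0.0781 to 0.107), and under library totals (log2FC 0.04, FDR 0.853). Derl1 gave no call under TMM (log2FC -0.09 ± 0.11) and was called higher under library totals (log2FC 0.43). Derl3, an inducible derlin of secretory cells, had 11, 10 and 58 reads in the WT libraries and 52, 7 and 18 reads in the HepKO libraries. The spread within each group was wide, and the 95% interval of its log2FC ran from -2.58 to 1.33. Os9, the lectin that hands glycoproteins to Sel1l's product, was at 194, 214 and 233 CPM in WT and 188, 174 and 167 CPM in HepKO, lower in every HepKO library but with no call (log2FC -0.28 ± 0.11, FDR 0.0746) until HepKO replicate 1 was left out (log2FC -0.33, FDR 0.0496). The translocon genes Sec61b and Ssr1 gave no call under TMM (log2FC -0.22 and -0.02) and were called higher under library totals, Sec61b narrowly (FDR 0.0498) and not without HepKO replicate 1 (FDR 0.0783).

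Compared by role, the sensors and transcription factors had a median log2FC of 0.28, the chaperones and folding enzymes -0.16 and the ERAD factors -0.39. Of the 6 sensors and factors 2 were higher and 1 lower; of 19 chaperones and folding enzymes 2 were higher and 7 lower; and of 10 ERAD factors 1 was higher and 4 lower, where 19.5% of all tested genes were higher and 18.7% lower. Under library totals 4 sensors and factors, 11 chaperones and folding enzymes and 3 ERAD factors were higher and 1 ERAD factor was lower. Of all tested genes 46.4% were higher and 5.84% lower there. Lower calls thus outnumbered higher calls for chaperones and ERAD factors under TMM and not under library totals. Below the median log2FC of all tested genes lay 8 of 10 ERAD factors, 11 of 19 chaperones and folding enzymes and 2 of 6 sensors and factors, under both scalings. The median log2 CPM of the sensor role minus that of the chaperone role, of which only the change between libraries can be read because gene length is not corrected, was -0.60, -0.37 and -0.46 in WT libraries and -0.15, 0.14 and 0.26 in HepKO libraries. The HepKO libraries were higher in each case, with replicate 1 nearest to WT. ERAD minus chaperones gave 0.40, 0.49 and 0.25 in WT libraries and 0.37, 0.10 and 0.17 in HepKO libraries, which overlapped. Summed, the 37 genes took 0.693%, 0.723% and 0.706% of all reads in WT and 0.765%, 0.779% and 0.771% in HepKO. In TMM-scaled CPM the same sum went from 8361 to 8566 in WT to 6447 to 6489 in HepKO, so the order of the groups in the total also rested on the scaling. For the ERAD factors alone the share of reads was 0.119% to 0.128% in WT and 0.106% to 0.119% in HepKO. By that share the groups overlapped. A sum with Herpud1 left out was added after the values were seen. The other 9 ERAD factors held 0.0831% to 0.0854% of reads in WT libraries and 0.0945% to 0.102% in HepKO libraries, so HepKO was then higher by share of reads. In TMM-scaled CPM the HepKO sums were lower with Herpud1 (1426 to 1557 in WT, 892 to 1001 in HepKO). They were also lower without it (994 to 1019 in WT, 796 to 860 in HepKO).

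A set of 10 ratios between related genes of the list, chosen after the values were seen, was followed within libraries. Since the pairs were picked for their values, the ratios are given as a description with no test. The groups did not overlap in 9 of them and overlapped for Ern1 over Eif2ak3. The largest shift was that of Herpud1 over Syvn1, lower in HepKO by 2.09 on the log2 scale, followed by Dnajc10 over Hspa5, higher by 0.93, Edem1 over Edem2, lower by 0.83, and Calr over Canx, lower by 0.75. Ern1 over Xbp1 was higher by 0.68, from 0.0949, 0.0945 and 0.113 in WT to 0.161, 0.172 and 0.152 in HepKO. Atf6 over Atf6b was lower by 0.48.

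**Figure D3:**
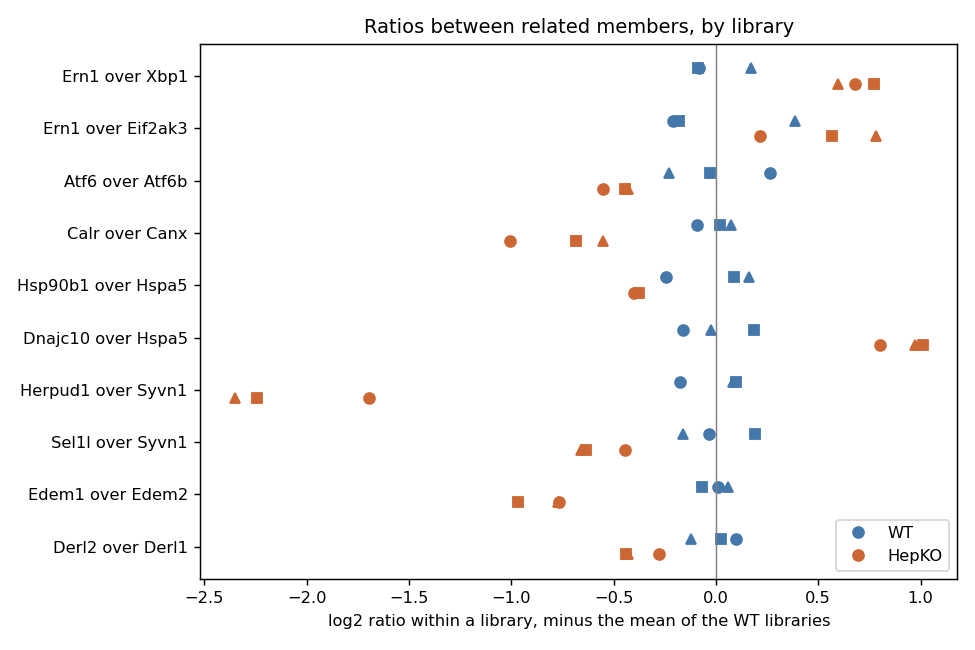
Log2 ratio of pairs of related genes within each library, minus the mean of the 3 WT libraries (x axis), WT in blue and HepKO in orange, with circle, square and triangle for replicates 1, 2 and 3. Herpud1 over Syvn1 shows the widest gap, and Ern1 over Eif2ak3 is the one pair whose groups overlap.

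Read against the promoter stretches above, some carriers of an element were called lower under TMM, the others were not called, and none was called higher. Of the 9 genes with the first ER stress element, Calr, Hsp90b1 and Pdia6 were lower under TMM, and Hspa5, Dnajc3, Creld2, Canx, Syvn1 and Derl3 were not called, with log2FC from -0.71 to 0.38 over the 9. Under library totals Hspa5, Creld2, Canx and Syvn1 were higher, and the other 5 were not called. Of the 9 genes 33.3% were thus lower and none higher under TMM, against 18.7% and 19.5% of all tested genes. Under library totals none was lower and 44.4% were higher, against 5.84% and 46.4%. Of the carriers of the second element, Herpud1 was lower under both scalings (-2.01 under TMM), while Dnajb11 was lower under TMM (-0.29) but not with any 1 library left out, and lay at 0.22 under library totals with no call. The genes higher under both scalings (Ern1, Eif2ak3, Dnajc10, Ero1l and Edem2) had neither element in their windows. An element stood in 11 of the 32 genes with a window, so most had none. Outside the list, 28 genes in the promoter table had the first element, of which 11 were tested. Under TMM 1 (9.09%) was lower and 2 (18.2%) were higher, and under library totals 1 (9.09%) was lower and 5 (45.5%) were higher. The second stood in 10 others, of which 7 were tested. Of these, 3 (42.9%) were lower under TMM and 3 (42.9%) higher under library totals.

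The wider pathway was followed in lists of other genes drawn up by pathway. The shares called among all tested genes, against which these counts stand, were 18.7% lower and 19.5% higher under TMM and 5.84% lower and 46.4% higher under library totals. They hold for the fit of all libraries and not for the counts without HepKO replicate 1. Of 32 other ERAD genes 7 (21.9%) were lower and 1 (3.12%) higher under TMM, with a median log2FC of -0.13. Those with the smallest p are named. March6, a ligase of another ERAD route (log2FC -0.84 ± 0.12, FDR 0.00136), and Vcp, the ATPase that extracts substrates from the membrane (log2FC -0.62 ± 0.09, FDR 0.00175), were lower under TMM, while the shuttle factor Ubqln2 was higher (log2FC 0.62 ± 0.10, FDR 0.00199). Vcp was at 467, 466 and 469 CPM in WT and 298, 299.8 and 315 CPM in HepKO. Under library totals 1 of the 32 was lower and 20 were higher, with March6 still lower (log2FC -0.33, FDR 0.0400) and Vcp not called. Without HepKO replicate 1 the counts were 8 lower and 1 higher under TMM, and under library totals 16 were higher and March6 was no longer called (FDR 0.0789).

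Of 38 other tested folding and glycoprotein control genes 14 (36.8%) were lower and 4 (10.5%) higher under TMM (median -0.17), and 19 were higher under library totals. The counts were 13 lower and 2 higher under TMM without HepKO replicate 1. The cargo lectin Lman2 (log2FC -0.74 ± 0.10, FDR 0.00109) and the thioredoxin-domain proteins Txndc11 (log2FC -0.65 ± 0.10, FDR 0.00204) and Txndc5 (log2FC -0.60 ± 0.11, FDR 0.00431) had the smallest p and were lower under TMM, with no call under library totals. Of 32 other genes of the translocon, signal peptidase and glycan transfer 6 (18.8%) were lower and 2 (6.25%) higher under TMM (median -0.07), 5 and 1 without HepKO replicate 1, and 21 were higher under library totals. The share of lower calls was close to that of all tested genes. Ostc, a subunit of the oligosaccharyltransferase, was higher (log2FC 0.69 ± 0.17, FDR 0.0150), and the signal recognition receptor Srpr (log2FC -0.33 ± 0.09, FDR 0.0207) and the channel partner Sec62 (log2FC -0.34 ± 0.09, FDR 0.0218) were lower under TMM and not called under library totals, where their log2FC were positive.

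Of 22 tested genes of the sensor branches 8 (36.4%) were higher and 1 (4.55%) lower under TMM (median 0.38), and 18 (81.8%) higher and 1 lower under library totals. Besides targets of the sensors, the list holds genes that act upstream of or beside them. Among these are Mbtps1 and Mbtps2, whose products cut ATF6, and the ATF6-like factors Creb3, Creb3l1 and Creb3l2. Creb3l1 and Creb3l2 were among the 8 higher genes. The TMM counts without HepKO replicate 1 were 5 higher and 1 lower. Ddit3, the transcription factor CHOP that the PERK branch induces, was at 4.12, 4.12 and 3.57 CPM in WT and 27.3, 9.96 and 12.1 CPM in HepKO. All HepKO libraries were above WT, HepKO replicate 1 the most, and the gene was higher (log2FC 2.06 ± 0.37, FDR 0.00378), with a log2FC of 1.48 without HepKO replicate 1 (FDR 0.00158). Bcl2l11, which encodes the cell death protein BIM, was higher as well (log2FC 1.28 ± 0.22, FDR 0.00305). Ppp1r15b, a phosphatase subunit that reverses the translation block, was the gene that was lower, at 176, 169 and 164 CPM in WT and 88.6, 84.6 and 78.9 CPM in HepKO (log2FC -1.01 ± 0.09, FDR 2.61e-04), also under library totals (log2FC -0.50, adjusted p = 0.00285). Atf4, Ppp1r15a, Trib3 and Chac1 of the same list were chosen after their values were seen. Atf4 (log2FC 0.44 ± 0.11, FDR 0.0141) and Ppp1r15a (log2FC 0.72 ± 0.18, FDR 0.0150) were higher under TMM. Trib3 (log2FC 0.52 ± 0.27, FDR 0.165) and Chac1 (log2FC -0.08 ± 0.35, FDR 0.885) were not called. Under library totals Trib3 was called higher (log2FC 1.04, FDR 0.0132) and Chac1 was not called (log2FC 0.43, FDR 0.322).

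**Figure D4:**
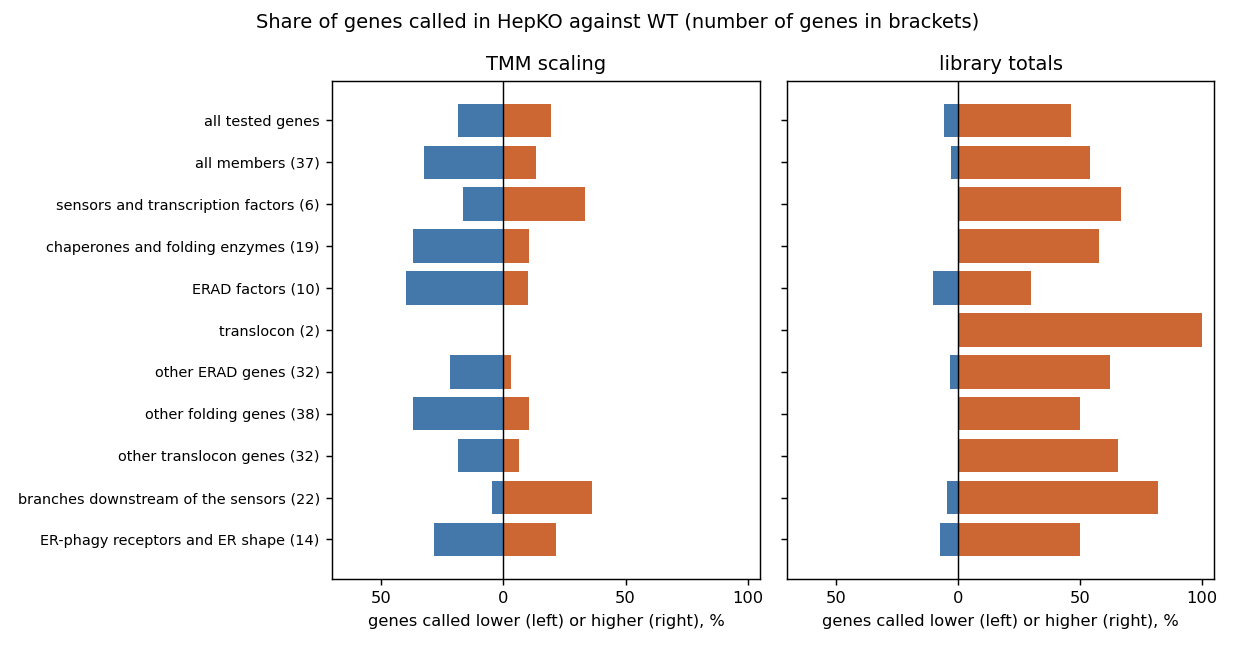
Share of genes called lower (blue, to the left) or higher (orange, to the right) in HepKO, in percent, under TMM (left panel) and library totals (right panel), for all tested genes, the 37 genes and their roles, and the other lists. Under TMM lower calls outnumber higher ones for chaperones and ERAD factors. The reverse holds under TMM for genes of the sensor branches, labelled branches downstream of the sensors. Under library totals higher calls outnumber lower ones in every list shown.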

How the data were processed

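RNA-seq read counts per gene were taken as deposited for 3 WT and 3 HepKO liver libraries. The tools named for making them, per the submitters' processing notes, are featureCounts (Subread 2.0.0), STAR 2.7.11a, bcl2fastq and edgeR 3.40.2, on mm10. The sources used here give neither their order and settings nor the annotation release or strand. Of 56350 Ensembl IDs, 55480 matched GENCODE M21 without their version, which gave symbols, positions and exon lengths.

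Genes were filtered with filterByExpr (16051 kept) and tested with the quasi-likelihood method of edgeR 4.0.16 in R 4.3.3 on both groups, with TMM factors and no covariate, at an FDR under 0.05. The standard error of a log2FC is its size over the square root of F. CPM are TMM-scaled. The 95% intervals are confidence intervals of the log2FC, from its standard error and the t distribution, and not ranges of the library values. Alternatives were library totals, RLE factors, TMM without the 20 most abundant genes, a minimum of 1 CPM in 3 libraries or no filter, DESeq2 1.42.0, limma-voom (limma 3.58.1), a replicate block, an FDR under 0.01 and each library left out; library totals without HepKO replicate 1, the other lists without it and the ERAD sum without Herpud1 were added after the data were seen. The code was tested on simulated data.

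The 37 genes and all lists were chosen with earlier results of these data known, and gene pairs after their values were seen. All 37 are accounted for. Values by library are given for called genes, Ern1, Atf6, Atf6b, Eif2ak3, Xbp1, Hspa5 and Syvn1, and some others chosen after their values were seen. Of each other list the 3 genes with the smallest p are named. Promoter windows were those of RefSeq on GRCm38.p6.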

Additional observations from a re-analysis of the deposited data

How the results depend on the processing

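Library totals changed most. All genes then gave 937 lower and 7442 higher calls, the 37 genes 1 and 20, sensors and factors 0 and 4, chaperones and folding enzymes 0 and 11, and ERAD factors 1 and 3. Without HepKO replicate 1, chosen after seeing the data, the 37 genes gave 1 and 19. Log2FC turned from negative to positive for 15 of the 37 genes: Atf6, Dnajc3, Edem3 and Os9, called under neither scaling, and Hspa5 (0.35), Hyou1 (0.32), Dnajb11 (0.22), Pdia3 (0.20), Pdia6 (0.19), Edem1 (0.067), Sel1l (0.0071), Derl1 (0.43), Derl2 (0.035), Sec61b (0.29) and Ssr1 (0.49). At an FDR under 0.01 all genes gave 1693 lower and 1751 higher calls and the 37 genes 6 and 2, with 1 sensor higher, chaperones 3 and 1, and ERAD factors 2 and 0. Without a filter chaperones gave 4 and 1. RLE factors, TMM without the most abundant genes and the 1 CPM filter changed no call among the 37, except that Derl3 was not tested under the last. DESeq2 and limma-voom each added Dnajc3 as lower and changed no other. With 1 library left out, the 37 genes gave 7 to 11 lower and 2 to 4 higher calls, sensors 1 to 2 higher, chaperones 3 to 5 lower and 1 to 2 higher, ERAD factors 0 to 1 higher, and the ERAD median minus the chaperone median ran from -0.29 to -0.052. Derl3, at 7 to 58 reads, had the lowest counts.

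The replicate numbers share no stated origin. Same-numbered deviations from the group means correlated at -0.12, -0.07 and 0.00 for numbers 1, 2 and 3. With 3 samples a group, these values cannot show whether the numbers pair the samples. With a replicate block the 37 genes gave 10 lower and 3 higher calls, with 1 sensor and 1 chaperone higher, and all genes gave 2502 lower and 2569 higher calls.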

Other observations

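Receptors that deliver ER to autophagosomes and proteins that shape ER sheets and tubules stand next to the chaperones and ERAD factors. Of 14 such genes 4 (28.6%) were lower and 3 (21.4%) higher in HepKO under TMM (median log2FC -0.07), against 18.7% and 19.5% of all tested genes. Under library totals 1 (7.14%) was lower and 7 (50%) were higher, close to the 5.84% and 46.4% of all tested genes. Without HepKO replicate 1 the TMM counts were 5 lower and 4 higher. Atl2, a GTPase that fuses ER tubules, was at 201, 186 and 205 CPM in WT and 108, 110.1 and 102 CPM in HepKO (log2FC -0.89 ± 0.09, FDR 4.13e-04), and was lower under library totals too (log2FC -0.38, FDR 0.00820). Retreg2, a reticulon-type membrane-bending protein, was at 121, 122 and 129.6 CPM in WT and 72.2, 83.1 and 69.6 CPM in HepKO. It was lower under TMM (log2FC -0.73 ± 0.10, FDR 0.00125) and not called under library totals (log2FC -0.22, FDR 0.104). Rtn4, a reticulon of ER tubules, was at 114, 121 and 101 CPM in WT and 277, 222 and 259.7 CPM in HepKO, higher under both scalings (log2FC 1.17 ± 0.12, FDR 4.39e-04 under TMM). In each of these genes the groups did not overlap. Rtn4 is also expressed in cells other than hepatocytes. Markers of macrophages, of stellate cells and fibroblasts and of cholangiocytes were among those called higher in HepKO under TMM. The part of such cells in the change of Rtn4 was not tested.

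Among genes outside the list of 37, the UPR element stood in the promoter windows of 193 genes, of which 111 were tested, with 33 (29.7%) lower and 21 (18.9%) higher under TMM, against 18.7% and 19.5% of all tested genes. Under library totals 8 (7.21%) were lower and 55 (49.5%) higher, against 5.84% and 46.4%. They include Vcp, Txndc5 and Txndc11, which are named in the report for their small p.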
